A study of Mus musculus with 3 samples.

Results

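Pancreatic beta cells, the insulin-producing cells of the islet, were compared between mice that had recovered from a course of the insulin receptor antagonist S961 and control mice. The cells were chosen by RNA content. A barcode was kept if it had at least 500 detected genes, at most 20% mitochondrial unique molecular identifiers (UMIs, each a counted RNA molecule), at least 15% of its UMIs from Ins1 and Ins2, under 1% each from the hormone genes Gcg, Sst and Ppy, and was not led by the pseudogene Ftl1-ps1. These rules left 4909 beta cells of the 24590 barcodes in the series: 2846 in the control library and 2063 in the recovered library. The S961 library, with 1559 beta cells, is given beside them as a level.

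Islets came from male C57Bl6/J retired breeders aged 7 to 8 months. All mice carried pumps for 2 weeks: control pumps held no S961, S961 pumps delivered a labelled 20 nM per week, and in the recovered group the pumps were taken out after the S961 course. How long recovery lasted and how many mice gave each library are not stated in the sources used here. The islets were cultured overnight and dissociated with TrypLE before droplet-based 3' sequencing, so the RNA is that of islets after culture. Each group was 1 library. There are no replicates, no test between conditions was possible, and every interval below covers counting error only.

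Beta cells release insulin when glucose metabolism raises their ATP, closes potassium channels and lets calcium in. Their endoplasmic reticulum folds large amounts of proinsulin, and a set of chaperones and folding enzymes, switched on by the sensors of the unfolded protein response, is tied to that load. Blocking the insulin receptor raises blood glucose and calls for more insulin, and removing the block relieves that demand.

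The beta cells carried the RNA of their label. The 3 markers Ins1, Ins2 and Iapp (amylin, co-secreted with insulin) summed to 405600 CPM (UMI counts scaled to 1e6 per library's beta cells) in control, 435300 in S961 and 402700 in recovered beta cells. As Ins1 and Ins2 chose the cells, this is a description. Control beta cells held 22481303 UMIs in all and recovered cells 22383328, and the median cell had 7622 UMIs in control and 10290 in recovered, so recovered cells were deeper. Median mitochondrial shares were 6.90% and 7.31%. There were 30 control and 18 recovered cells just inside the insulin threshold (15 to 16%), with median Iapp shares of 4.41% and 5.49%. The 25 and 12 barcodes just outside it (14 to 15%) had 3.81% and 6.82%. Of all barcode sequences 51 occurred in 2 libraries, and 6 were beta cells in both the recovered and the control library.

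Markers of other cell types differed between the 2 sets of beta cells in places, which bears on the genes those cell types also make. The summed acinar (digestive enzyme) markers, 11 of 12 detected in control and 12 of 12 in recovered, were at 84.7 CPM in control, 1907 in S961 and 192 in recovered cells, and only Amy2a5 was at 0, in control. Stellate or fibroblast markers, 10 of 10 detected in control and 7 of 10 in recovered, were at 17.0 and 2.46 CPM, with Pdgfra, Lum and Acta2 at 0 in recovered. Alpha-cell markers (10 of 10 in each) were at 927 and 984 CPM, endothelial markers (10 of 10 in each) at 15.8 and 12.9 CPM, and macrophage markers at 44.4 and 47.3 CPM, where 10 of 10 were detected in control and 6 of 10 in recovered (Lyz2, C1qb, C1qc and Adgre1 at 0). The part of these cells in the gene differences was not tested, except where cells carrying their markers were left out. Leaving out cells with 3 UMIs of other markers removed 2.99% of control and 5.38% of recovered cells. As 89.3% and 93.6% held 3 UMIs of alpha markers, that setting did not act on those. Nor did it act on gamma-cell markers (34.8% and 26.6% of cells) or acinar markers (2.6% of control and 28.2% of recovered cells). A separate setting left out the cells with 3 UMIs of acinar markers.

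Most genes were close in the recovered and control beta cells. Of 10655 genes with at least 100 UMIs over both libraries, 192 were at least 1.5-fold higher in recovered (1.8%) and 90 at least 1.5-fold lower (0.845%), 282 in all (2.65%), while 87.0% differed by under 25% (the higher library over the lower). At 2-fold 33 were higher (0.31%) and 20 lower (0.188%). The median log2 ratio of recovered over control was 0.05, with a 5th percentile of −0.27 and a 95th of 0.43. Above 20 CPM, where counting error is small, only 16 of 5243 genes were higher and 20 lower. Of the genes past 1.5-fold, 50 higher and 34 lower ones lay under 10% of their CPM in another cell class of the same library. The share over all measured genes was not taken, so this does not set them apart from other genes. These counts used the same contrast that chose the comparison, so they describe the 2 libraries.

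**Figure D1:**
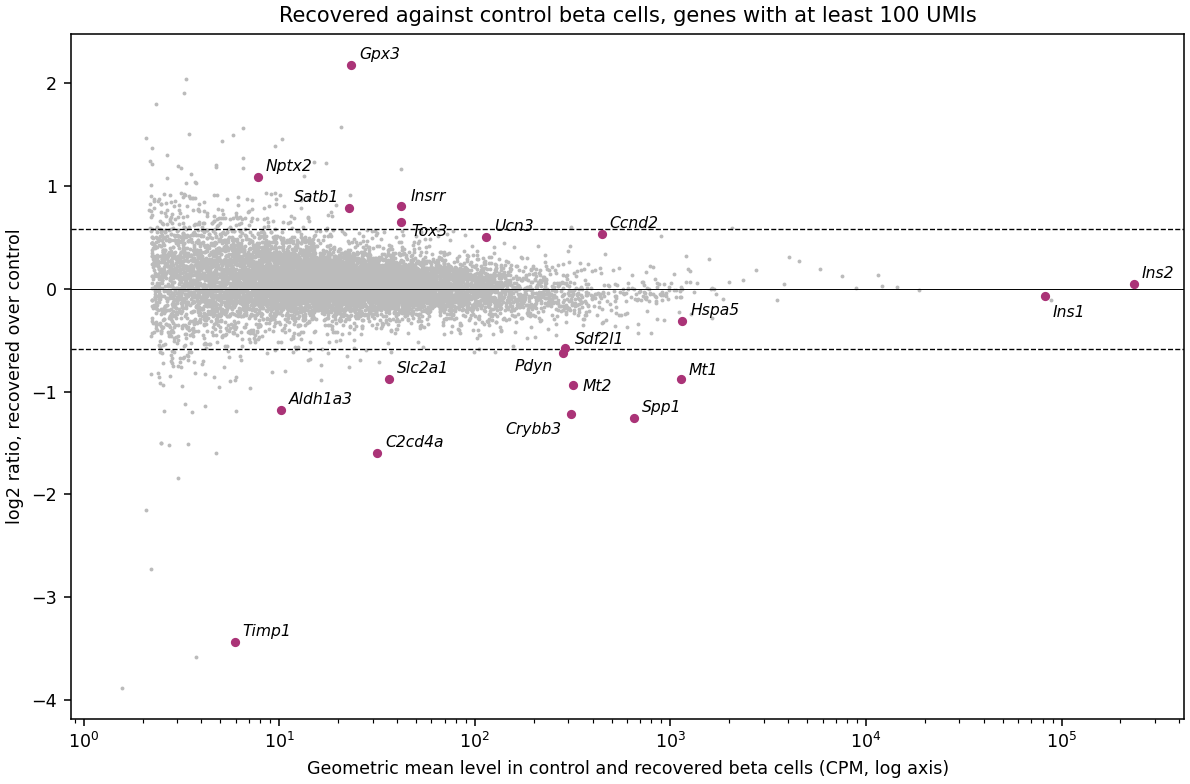
Log2 ratio of recovered over control (y axis) against the geometric mean level (x axis, CPM, log scale) for the 10655 genes with at least 100 UMIs, 1 point per gene. Dashed lines mark 1.5-fold. The insulin genes lie near 0, Spp1, Crybb3, C2cd4a, Mt1 and Mt2 below the lower line, and Gpx3 and Insrr above the upper line.

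Among abundant genes the lowest ratios belonged to Spp1, Crybb3 and C2cd4a. Spp1 encodes osteopontin, a secreted phosphoprotein. It was at 1011 CPM in control, 637 in S961 and 422 in recovered beta cells, a log2 ratio of recovered over control of −1.26 (−1.29 to −1.23). Control was highest and recovered lowest. Crybb3, a beta crystallin of the lens that islets also express, was at 475, 157 and 204 CPM in the same order, a log2 ratio of −1.22 (−1.27 to −1.17). Here the S961 library was lowest and recovered only slightly above it. C2cd4a, a nuclear calcium-domain protein gene at a locus linked to type 2 diabetes risk, was at 55.3, 24.5 and 18.2 CPM, a log2 ratio of −1.60 (−1.76 to −1.44). Its relative C2cd4b was not lower, at 216, 270 and 250 CPM (0.22).

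In the GENCODE M21 annotation of GRCm38, all 3 are protein-coding. Spp1 (ENSMUSG00000029304.14) lies on chromosome 5 at 104435118 to 104441050, Crybb3 (ENSMUSG00000029352.14) on the same chromosome at 113075839 to 113081584, and C2cd4a (ENSMUSG00000047990.6) on chromosome 9 at 67830489 to 67832330. Values are of whole genes, counted from 3' ends. Spp1 is also a marker of ductal cells, where it reached 4787 CPM, and the beta-cell level was 21.1% of that. The ratio without cells holding any UMI of other markers was −1.51, a setting chosen after the data had been seen. It left out 30.5% of control and 42.9% of recovered cells. As 83.7% and 84.7% held 3 UMIs of ductal markers, it did not act on those. The part of ductal RNA in the Spp1 ratio was not tested.

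Spp1 RNA was concentrated in a minority of cells. With every cell thinned to 2000 UMIs, 35.3% (95% exact interval 33.5 to 37.1) of 2747 control cells held a Spp1 UMI, 22.9% of 1470 S961 cells and 16.9% (15.3 to 18.7) of 2008 recovered cells. Unthinned, the shares were 52.4%, 38.1% and 30.7%. Barcodes rich in endothelial markers, which should lack these beta-cell genes, held it in 17.0%, 3.19% and 5.88% at the same depth. At 2000 UMIs the top 10% of cells carried 72.7% of the Spp1 UMIs in control and 90.2% in recovered. That measure rises as fewer cells hold a UMI, so it does not show a stronger concentration in recovered. Crybb3 was in 35.8%, 14.8% and 20.0% of the cells (control, S961, recovered; endothelial 11.9%, 6.91% and 2.94%, unthinned 59.6%, 37.97% and 44.3%), and C2cd4a in 8.63%, 3.33% and 3.04% (endothelial 2.54%, 0% and 1.47%, unthinned 25.02%, 17.5% and 13.1%). For each of the 3 genes the share in control lay above that in recovered beyond counting error.

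**Figure D2:**
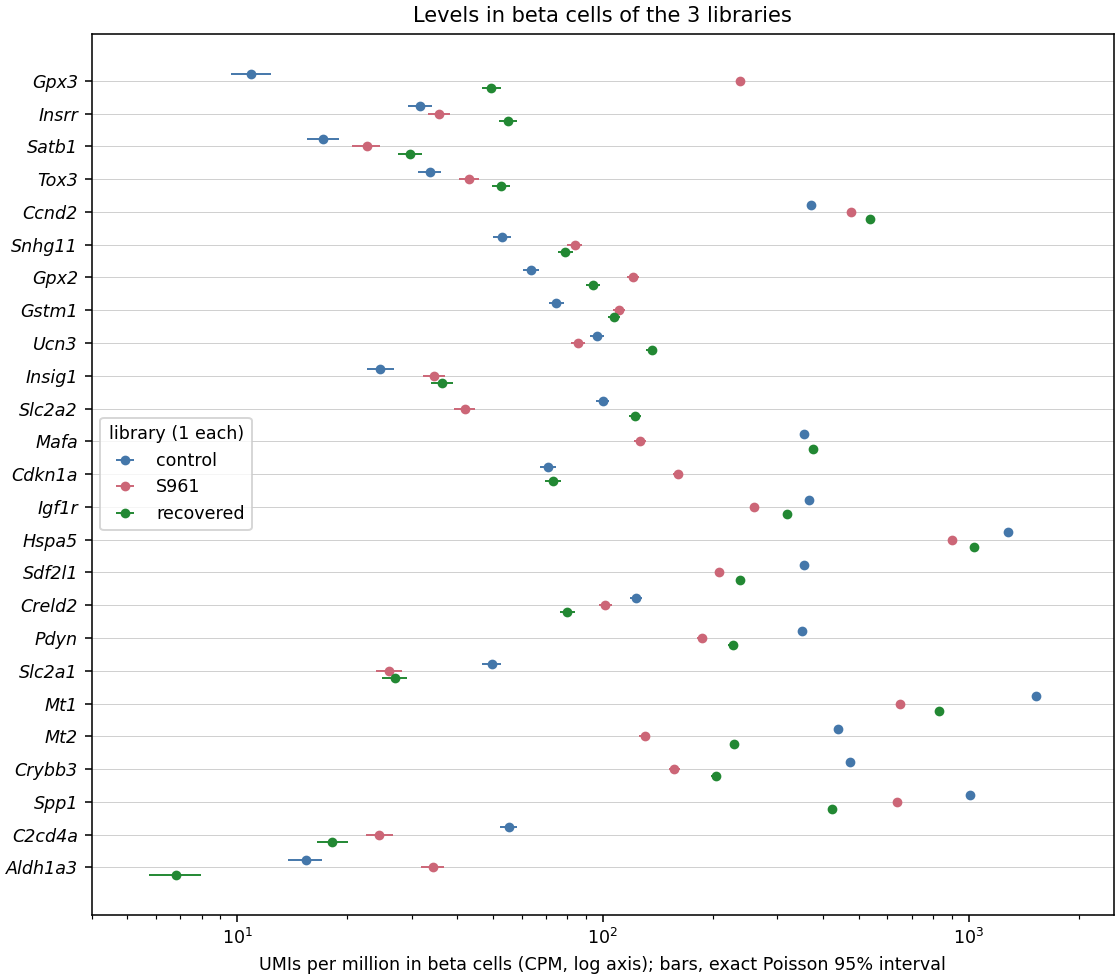
Levels of 25 named genes in beta cells of the 3 libraries (x axis, CPM, log scale; bars, exact Poisson 95% interval), with control in blue, S961 in red and recovered in green. Mafa, Slc2a2 and Cdkn1a have recovered close to control with S961 apart, whereas Mt1, Crybb3, Slc2a1 and Pdyn have recovered close to S961 with control apart.

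The metallothioneins, small proteins that bind zinc and copper and are induced by metals and stress, were lower as well. Mt1 was at 1529 CPM in control, 650 in S961 and 832 in recovered, a log2 ratio of −0.88 (−0.90 to −0.85). Mt2 was at 440, 130 and 229 CPM, a ratio of −0.94 (−0.99 to −0.89). Both lie side by side on chromosome 8, Mt2 at 94172664 to 94173568 and Mt1 at 94179082 to 94180327, and both had control highest and S961 lowest. The scarcer Mt3 was at 10.8, 9.61 and 6.97 CPM (−0.63). Of 10 measured metal-response genes, 0 were higher and these 3 were lower at 1.5-fold (0.845% of all genes were lower), with a list median of −0.15 against 0.05 over all genes. Mtf1, the metal-sensing factor that activates them, was at 25.9 and 28.7 CPM (0.15), and Hmox1, which degrades haem, at 130 in both (−0.00) and 6.19% of its macrophage level. The insulin-granule zinc transporter Slc30a8, outside this list, was higher, at 265, 171 and 355 CPM (0.42).

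Per cell, the sum of Mt1 and Mt2 at 2000 UMIs had medians of 2, 0 and 1 (control, S961, recovered), and cells with none made up 23.2%, 53.2% and 42.8%. Mt1 was in 72.4%, 44.4% and 53.5% of beta cells in the same order (unthinned 93.0%, 73.5% and 82.9%), against 41.5%, 10.1% and 23.5% of endothelial-marker-rich barcodes. In alpha-cell barcodes Mt1 was at 568 CPM in control and 274 in recovered (−1.05, −1.23 to −0.87), and in delta-cell barcodes at 751 and 492 (−0.61, −0.75 to −0.47). Insulin genes took 2.81% of alpha-cell UMIs in control and 1.36% in recovered, and 3.29% and 2.28% in delta cells. The part of beta-cell RNA in those ratios was not tested. Without the 15% most stressed cells, ranked by Mt1, Mt2, Hspa1a, Hspa1b and Ddit3, the beta-cell ratios were −0.63 for Mt1 and −0.66 for Mt2.

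Most unfolded protein response genes had slightly lower levels in recovered cells. Of 30 measured members 0 were higher and 1 was lower at 1.5-fold, against 1.8% and 0.845% of all genes. At a difference of 25% (the higher library over the lower) 9 were lower and 0 higher, against 3.49% and 9.52% of all genes, 28 had a ratio below 0, and the list median was −0.28 against 0.05 over all genes. Their levels summed to 11650 CPM in control, 9136 in S961 and 9727 in recovered. The lower members covered folding, disulfide formation and export. Creld2, a secreted chaperone-like protein, was at 123 CPM in control, 101.4 in S961 and 80.0 in recovered (−0.62, −0.71 to −0.54), and at −0.47 with cells thinned to 2000 UMIs. Sdf2l1, a co-chaperone of BiP, was at 354, 208 and 237 CPM (−0.58, −0.63 to −0.53), and the oxidase Ero1l at 239, 196 and 173 CPM (−0.47). Hspa5, which encodes BiP itself, the main chaperone of the endoplasmic reticulum, was at 1283, 900.0 and 1032 CPM (−0.31, −0.34 to −0.29).

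The stress factor Ddit3 (CHOP) was at 219 CPM in control, 129 in S961 and 157 in recovered (−0.48, −0.55 to −0.42), but at 0.02 without the 15% most stressed cells, which were ranked in part by Ddit3. Of the sensors of the response, only Ern1 and Atf6 are given here, and both were level. Ern1 (IRE1) was at 0.06, Atf6 at 0.00, and Xbp1, the factor spliced by IRE1, at −0.05. Outside the list, Kdelr3, a receptor that returns escaped chaperones to the endoplasmic reticulum, was at 22.4, 20.1 and 12.1 CPM (−0.89, −1.11 to −0.68), and Fkbp11, a proline isomerase of the secretory route, at 191, 130 and 130 CPM (−0.56). Per cell at 2000 UMIs the list had a median of 22 UMIs in control and 17 in both S961 and recovered cells.

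Several of these genes share a sequence element near their start. The endoplasmic reticulum stress response element, CCAAT and CCACG separated by any 9 bases, which ATF6 and XBP1 are known to bind with NF-Y, was searched on both strands from 250 bases before to 50 after the start in the RefSeq promoters of GRCm38.p6. It was found in 9 of the 25 list members that had a promoter there (36.0%) and in 0.119% of all 32851 promoters. The first share counts genes and the second promoters. The list was chosen as genes of the response that these factors drive. A high share follows from that choice and does not bear on recovered against control. It is shown for 4 of them as examples chosen after their values had been seen: Hspa5 for its level, Creld2 for its ratio, and Pdia6 and Calr as abundant folding genes. Each line is read 5' to 3' on the gene's strand, with capitals on the 5 bases at each end of the element; where the element is on the opposite strand, they read CGTGG and ATTGG.
Hspa5: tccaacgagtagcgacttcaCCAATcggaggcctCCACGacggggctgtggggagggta
Creld2: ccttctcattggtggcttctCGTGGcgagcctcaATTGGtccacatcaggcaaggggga
Pdia6: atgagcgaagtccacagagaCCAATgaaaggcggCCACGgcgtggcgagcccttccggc
Calr: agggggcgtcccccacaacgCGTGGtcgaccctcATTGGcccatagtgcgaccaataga
The windows lie at chr2:34772005-34772063 (plus strand, Hspa5), chr15:88819500-88819558 (plus, Creld2), chr12:17266471-17266529 (plus, Pdia6) and chr8:84847055-84847113 (minus, Calr). The disulfide isomerase Pdia6 was at 684 (control), 446 (S961) and 531 CPM (recovered) (−0.37), and the lectin chaperone Calr at 943, 548 and 769 CPM (−0.29). The 9 genes ranged from −0.62 (Creld2) to −0.12 (Canx). A match describes these letters and shows neither binding nor a cause.

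Glycolysis and hypoxia-target genes were also mostly lower. Of 24 measured, 4 were lower and 0 higher at 1.5-fold, against 0.845% and 1.8% of all genes, 21 had a ratio below 0, and the median was −0.22 against 0.05 over all genes. Slc2a1, the glucose transporter GLUT1, which rodent beta cells use little, was at 49.6 CPM in control, 26.0 in S961 and 27.0 in recovered (−0.88, −1.02 to −0.74). Both S961 and recovered lay well below control. Egln3, an oxygen-sensing hydroxylase induced in hypoxia, was at 6.18, 5.03 and 2.82 CPM (−1.14, −1.59 to −0.70), but at −0.49 with cells thinned to 2000 UMIs. The lactate dehydrogenase Ldha (41.5, 34.6 and 25.4 CPM, −0.71) and the lipid-droplet protein Hilpda (32.9, 30.2 and 20.4 CPM, −0.69) were the other 2. Egln3, Ldha and Hilpda each lay at under 10% of their level in another cell class, and Slc2a1 at 10.6% of its endothelial level. Gapdh, at 1383, 1063 and 1165 CPM, had a ratio of −0.25. Per cell at 2000 UMIs the list had medians of 11, 9 and 8 UMIs (control, S961, recovered). The median ratio was −0.12 without the 15% most stressed cells, a setting that left out a larger share of control than of recovered cells.

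Further genes were among the 15 lowest. Pdyn, the opioid peptide precursor prodynorphin, was at 351 CPM in control, 186 in S961 and 226 in recovered (−0.63, −0.68 to −0.58). Rgs4, which shortens G-protein signalling, was at 157, 185 and 102 CPM (−0.62, −0.70 to −0.55), so that recovered was lowest and S961 highest. Dapl1 showed the same order, at 29.4, 36.7 and 17.4 CPM (−0.76, −0.94 to −0.58). Ifi27, an interferon-induced mitochondrial protein, was at 130, 88.5 and 85.8 CPM (−0.59). The fibrinogen-like protein Fgl2 (−0.62) and the actin-binding thymosin Tmsb10 (−0.60) were also among them. Each of Pdyn, Rgs4, Ifi27, Fgl2 and Tmsb10 fell short of 1.5-fold under at least 2 alternatives, with ratios nearest to 0 of −0.56, −0.55, −0.50, −0.53 and −0.25.

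Fewer genes above 20 CPM were higher than lower in recovered beta cells. Mitochondrial, ribosomal and unnamed genes, markers of other cells and genes far below their level in other cells were set aside. Among those set aside, the unnamed gene Gm47283 was at 11.97 CPM in control and 35.6 in recovered (1.57). Of the rest, the ratio above 0 with the interval farthest from 0 was that of Insrr. Insrr encodes the insulin receptor-related receptor, an orphan relative of the insulin receptor known to respond to alkaline pH. It was at 31.7 CPM in control, 35.7 in S961 and 55.0 in recovered, a log2 ratio of 0.80 (0.66 to 0.93), so that recovered stood above both other libraries. Insrr (ENSMUSG00000005640.11) lies on chromosome 3 at 87796951 to 87816101. The insulin receptor itself was level, with Insr at 17.2, 19.5 and 19.0 CPM (0.14, −0.06 to 0.34), as was its substrate Irs2, at 30.7, 33.2 and 29.8 CPM (−0.04). Igf1r, the receptor of insulin-like growth factor, was at 366, 259 and 318 CPM (−0.20, −0.25 to −0.16). Of 18 measured insulin and IGF signalling genes Insrr was the 1 past 1.5-fold, against 2.65% of all genes.

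Further genes were among the 15 highest. Satb1, a chromatin organiser, was at 17.2 (control), 22.6 (S961) and 29.7 CPM (recovered) (0.79, 0.60 to 0.97), and Tox3, a nuclear factor of the HMG-box family, at 33.7, 43.1 and 52.7 CPM (0.65, 0.51 to 0.78; 0.51 among cells with 4 to 8% mitochondrial UMIs). Both had control lowest and recovered highest. Ccnd2, cyclin D2, the main D-type cyclin of beta cells, was at 371, 477 and 536 CPM (0.53, 0.49 to 0.57), in the same order and under 1.5-fold. Rad51ap2 was at 14.8, 22.9 and 25.9 CPM (0.81, 0.61 to 1.01) and the calcium-binding protein Cib3 at 14.2, 14.7 and 23.8 CPM (0.75, 0.54 to 0.95). The proliferation marker Mki67 held only 19 UMIs in control and 23 in recovered (0.28, −0.66 to 1.24), so no difference in dividing cells was detectable at this depth. Of 11 measured cell cycle genes 1, the tubulin regulator Stmn1, was past 1.5-fold (against 2.65% of all genes), with a list median of 0.03. Stmn1 was at 2.402 and 5.23 CPM, or 2.73% of its level in B cells. Its ratio of 1.12 was 0.59 without cells holding 3 UMIs of acinar markers.

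Among genes against oxidative stress 1 stood apart. Gpx3, a glutathione peroxidase that is secreted, had the highest ratio of those above 20 CPM: 10.9 CPM in control, 237 in S961 and 49.6 in recovered, a log2 ratio of 2.18 (1.98 to 2.38). At 2000 UMIs it was in 2.37% of beta cells from control, 30.2% from S961 and 6.82% (5.76 to 8.02) from recovered islets, against 0.847%, 0.532% and 2.94% of endothelial-marker-rich barcodes (unthinned beta-cell shares 7.20%, 66.9% and 16.5%). Alpha cells held Gpx3 at 516 CPM in control and 534 in recovered (0.05), and the beta-cell level in recovered was 9.28% of that, while alpha markers in the beta cells were at 927 and 984 CPM. Gpx2, a glutathione peroxidase known from the gut lining, was at 63.7, 121 and 94.1 CPM (0.56, 0.47 to 0.66) and the glutathione transferase Gstm1 at 74.6, 111 and 107 CPM (0.52, 0.43 to 0.62). For these 3 genes recovered lay between control and S961. Of 24 measured oxidative stress genes only Gpx3 was past 1.5-fold, against 2.65% of all genes. Of the 24, 12 had a ratio above 0 and 12 below, and the list median was 0.01. Gpx2 and Gstm1 were under 1.5-fold.

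Cholesterol synthesis genes leaned higher. Of 25 measured, 1 was higher and 0 lower at 1.5-fold, against 1.8% and 0.845% of all genes. By at least 25%, 12 were higher (against 9.52% of all genes), and the median was 0.30. Insig1, which holds the sterol sensor in the endoplasmic reticulum, was at 24.6 CPM in control, 34.6 in S961 and 36.4 in recovered (0.56, 0.41 to 0.72). With cells thinned to 2000 UMIs the list median was 0.09, and per cell the list had a median of 1 UMI in each library.

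Markers of mature, functioning beta cells were near or above control. Ucn3, urocortin 3, a peptide of mature beta cells, was at 96.2 CPM in control, 85.4 in S961 and 136 in recovered (0.50, 0.42 to 0.58). Mafa, a transcription factor that activates insulin genes, was at 355, 127 and 377 CPM (0.08, 0.04 to 0.13), and Slc2a2, the glucose transporter GLUT2, at 99.8, 41.9 and 123 CPM (0.30, 0.21 to 0.38). The channel Trpm5 was at 82.5, 24.6 and 77.0 CPM (−0.10) and Pdx1 at 112, 71.7 and 109 CPM (−0.03). In these 4 genes S961 was low and recovered near control. Ins1 was at −0.07, Ins2 at 0.05 and Iapp at −0.11. Lpl, lipoprotein lipase, was at 138, 58.9 and 183 CPM (0.41, 0.34 to 0.48).

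As lists, 0 of 19 islet transcription factors (median 0.08), 0 of 26 secretory granule genes (0.10), 0 of 18 excitability genes (0.17), 0 of 16 glucose-sensing genes (0.20) and 0 of 13 hormone and nutrient receptors (0.23) were past 1.5-fold in either direction. Of 16 maturity markers only Spp1, which is on that list, was, and the list median was 0.12. The median over all genes was 0.05, and 2.65% of all genes were past 1.5-fold either way. Lists of this size would hold few such genes at that share, so a count of 0 does not set them apart.

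**Figure D3:**
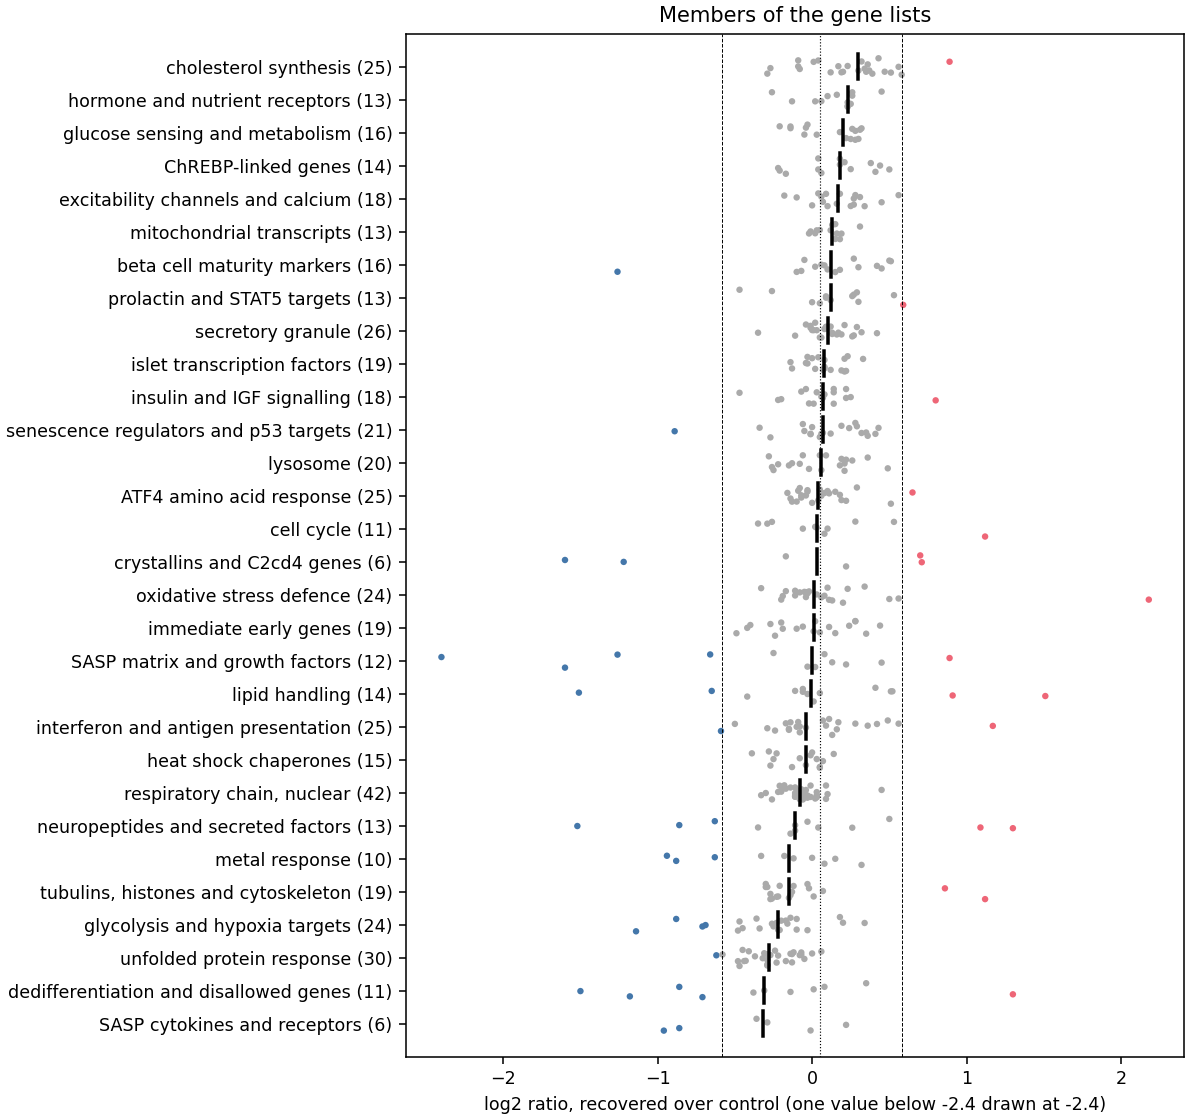
Log2 ratio of recovered over control (x axis) for each measured member of 30 gene lists (rows, number of members in brackets). Black bars are list medians, the dotted line is the median of all genes (0.05), dashed lines are 1.5-fold, and red and blue points lie past it. The unfolded protein response and glycolysis lists sit left of the dotted line and cholesterol synthesis right of it, with few members past 1.5-fold.

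Genes of dedifferentiated beta cells, and genes normally silenced in them, went both ways. Aldh1a3, a retinaldehyde dehydrogenase that marks dedifferentiated beta cells, was at 15.4 CPM in control, 34.3 in S961 and 6.79 in recovered (−1.18, −1.47 to −0.90). Recovered was thus below control, on the far side from S961. The share of cells with a UMI at 2000 UMIs was 2.88% (2.28 to 3.57), 5.37% (4.28 to 6.65) and 0.946% (0.571 to 1.47), with 0 in the endothelial-marker-rich barcodes of each library and 8.36%, 18.9% and 4.36% unthinned. The peptide hormone gene Cck was at 6.23, 17.6 and 3.44 CPM (−0.86, −1.28 to −0.44), in the same order. Gast, gastrin, went the other way, with 12, 127 and 37 UMIs (1.63, 0.66 to 2.71), too few to count among the measured genes. Neurog3, a factor of endocrine progenitors, had 26 and 32 UMIs (0.31, −0.49 to 1.11). Of 11 measured list members 4 were lower (Aldh1a3, Cck, Ldha and Vim), 1 was higher (the neuropeptide Npy, at 1.69 and 4.16 CPM, 1.30) and 6 were neither, against 0.845% lower and 1.8% higher over all genes. Vim and Ldha lay at 0.145% and 2.16% of their stellate level, and Vim was at 0.23 without cells holding 3 UMIs of other markers.

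The cell-cycle arrest genes named here with at least 100 UMIs lay within 1.5-fold of control. Cdkn1a, which encodes the inhibitor p21, was at 70.7 CPM in control, 161 in S961 and 73.1 in recovered (0.05, −0.05 to 0.15). The p53 target and stress cytokine Gdf15 was at 13.4, 30.3 and 13.3 CPM (−0.01, −0.25 to 0.22). Both were highest in S961, with recovered within counting error of control. Cdkn2b was at 11.7, 13.5 and 14.97 CPM (0.35, 0.11 to 0.59). The p16 gene Cdkn2a was counted 14, 15 and 40 times (control, S961, recovered; 1.52, 0.61 to 2.51), and its share at 2000 UMIs was 2 of 2747 control and 6 of 2008 recovered cells, 0.0728% (0.00882 to 0.263) and 0.299% (0.110 to 0.649), against 0% and 1.47% of endothelial-marker-rich barcodes (0.457% and 1.84% of beta cells unthinned). That share is at or below the comparator in recovered, so it is not read as a difference. The comparator covers only 118 control and 68 recovered barcodes, so it cannot decide the matter. Of 21 measured senescence genes 0 were higher and 1, the kinase Plk2, was lower (−0.89, −1.26 to −0.53), at 0.972% of its endothelial level, against 1.8% and 0.845% of all genes. Among 6 measured cytokine genes of the senescent secretory type, the decoy receptor Tnfrsf11b (6.85, 4.90 and 3.53 CPM, −0.96) and the chemokine Cxcl16 (8.05, 4.22 and 4.42 CPM, −0.86, 0.873% of its macrophage level) were lower. Neither kept 1.5-fold throughout: Tnfrsf11b was at −0.28 with cells thinned to 2000 UMIs, and Cxcl16 at −0.37 without the 15% most stressed cells.

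Interferon and antigen genes were level as a list, with 1 of 25 higher, 1 lower and a median of −0.04. Over all genes 1.8% were higher and 0.845% lower. Ifit3, an interferon-induced RNA-response gene, was at 4.36 CPM in control, 3.10 in S961 and 9.83 in recovered (1.17, 0.82 to 1.53), and at 0.54 with cells thinned to 2000 UMIs. Its share at 2000 UMIs was 1.02%, 0.340% and 0.946% (endothelial 3.39%, 1.596% and 7.35%, unthinned 1.83%, 1.86% and 2.81%). Both shares lay below the comparator, and the recovered level was 1.802% of that in macrophages. B2m, the light chain of class I antigen molecules, was at 47.6, 23.5 and 42.8 CPM (−0.15). Lists with 0 members past 1.5-fold also included heat shock chaperones (15 measured, −0.04), immediate early genes (19, 0.01), nuclear respiratory chain genes (42, −0.08), mitochondrial transcripts (13, 0.13) and lysosomal genes (20, 0.06). Of all genes 2.65% were past it either way, so these counts do not set the lists apart.

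**Figure D4:**
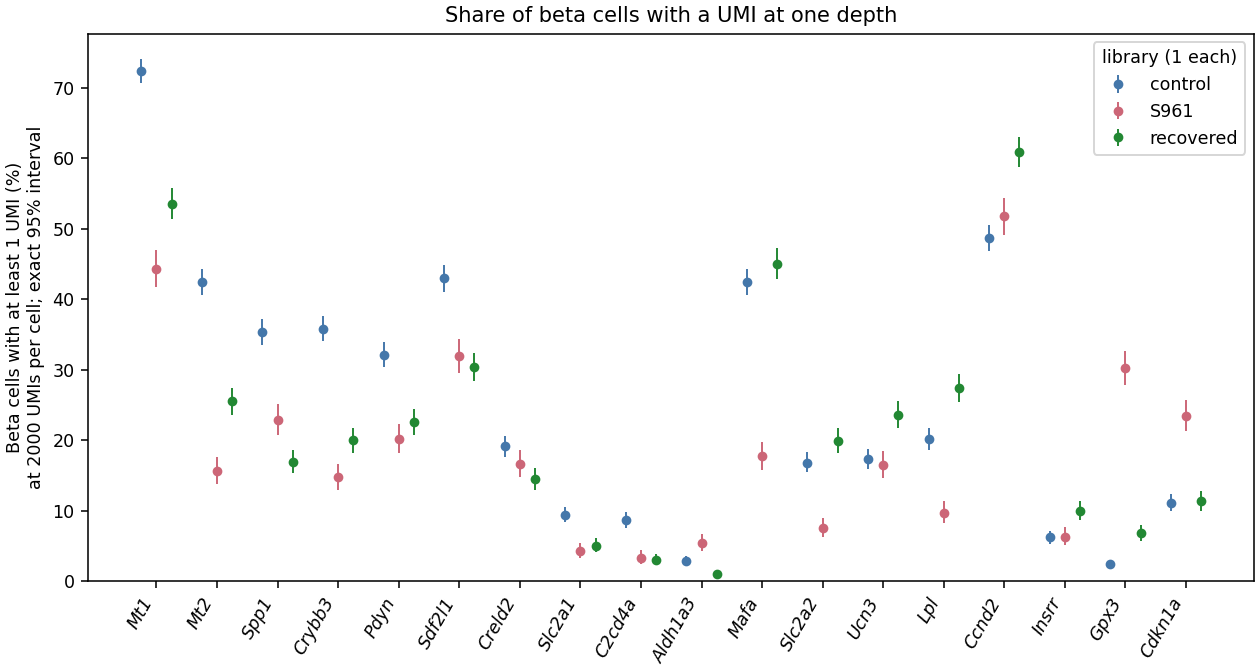
Share of beta cells with at least 1 UMI of a gene after every cell was thinned to 2000 UMIs (y axis, percent; bars, exact 95% interval), for 18 genes in control (blue), S961 (red) and recovered (green). Mt1 falls in 72.4% of control and 53.5% of recovered cells and Spp1 in 35.3% and 16.9%, while Ccnd2 and Ucn3 are in more recovered than control cells.

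Higher genes were in more cells too. At few UMIs per cell such a share rises with the mean level, so it largely restates the ratio. At 2000 UMIs Ccnd2 was in 48.7% (46.8 to 50.6) of cells from control, 51.8% from S961 and 60.9% (58.7 to 63.1) from recovered islets, Ucn3 in 17.3%, 16.5% and 23.6%, and Insrr in 6.19% (5.32 to 7.16), 6.33% and 9.91% (8.64 to 11.3). Unthinned, the shares were 83.4%, 78.9% and 94.2% for Ccnd2, 45.6%, 50.9% and 63.8% for Ucn3 and 20.7%, 31.8% and 40.5% for Insrr. Endothelial-marker-rich barcodes held these genes in 17.8%, 13.3% and 27.9%, in 1.69%, 0% and 0%, and in 2.54%, 0.532% and 0%. Of the genes plotted, Slc2a1 and Cdkn1a were in fewer beta cells than endothelial-marker-rich barcodes in each library (48.3%, 47.3% and 38.2% for Slc2a1, 72.9%, 78.7% and 72.1% for Cdkn1a), so their beta-cell shares are not read as differences.

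Depth and mitochondrial share differed between the libraries, so ratios were recomputed within bands of cells. Cells with under 5000 UMIs numbered 496 in control and 171 in recovered, those with 5000 to 10000 numbered 1702 and 780, and those with 10000 to 20000 numbered 633 and 1014. The mitochondrial bands held 546 and 403 cells under 5%, 1683 and 1059 at 5 to 10%, and 617 and 601 at 10 to 20%. Spp1, Crybb3, C2cd4a and Mt1 were lower, and Insrr, Ccnd2, Satb1 and Gpx3 higher, in every one of these 6 bands and in 3 bands of insulin share. Their size varied. Spp1 was at −0.80, −2.21 and −1.21 in the depth bands, Mt1 at −1.22, −0.48 and −0.85, Insrr at 1.01, 1.12 and 0.77, and Gpx3 at 2.57, 2.32 and 0.94 in the mitochondrial bands.

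Some genes did depend on the band. Hspa5 was higher in recovered among cells with under 5000 UMIs (0.41, 0.29 to 0.53), and lower at 5000 to 10000 (−0.53, −0.58 to −0.49) and at 10000 to 20000 (−0.36, −0.40 to −0.33). Creld2 was at 0.06, −0.94 and −0.77 in the same bands, and the unfolded protein response list had medians of −0.13, −0.40 and −0.33. Mafa was at −0.23, 0.08 and 0.28 in the mitochondrial bands from low to high, and Slc2a2 at −0.25, 0.24 and 0.61. Thus Mafa and Slc2a2 were below control among the cells with under 5% mitochondrial UMIs and above it among those with 10 to 20%. The difference between bands was not tested.

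**Figure D5:**
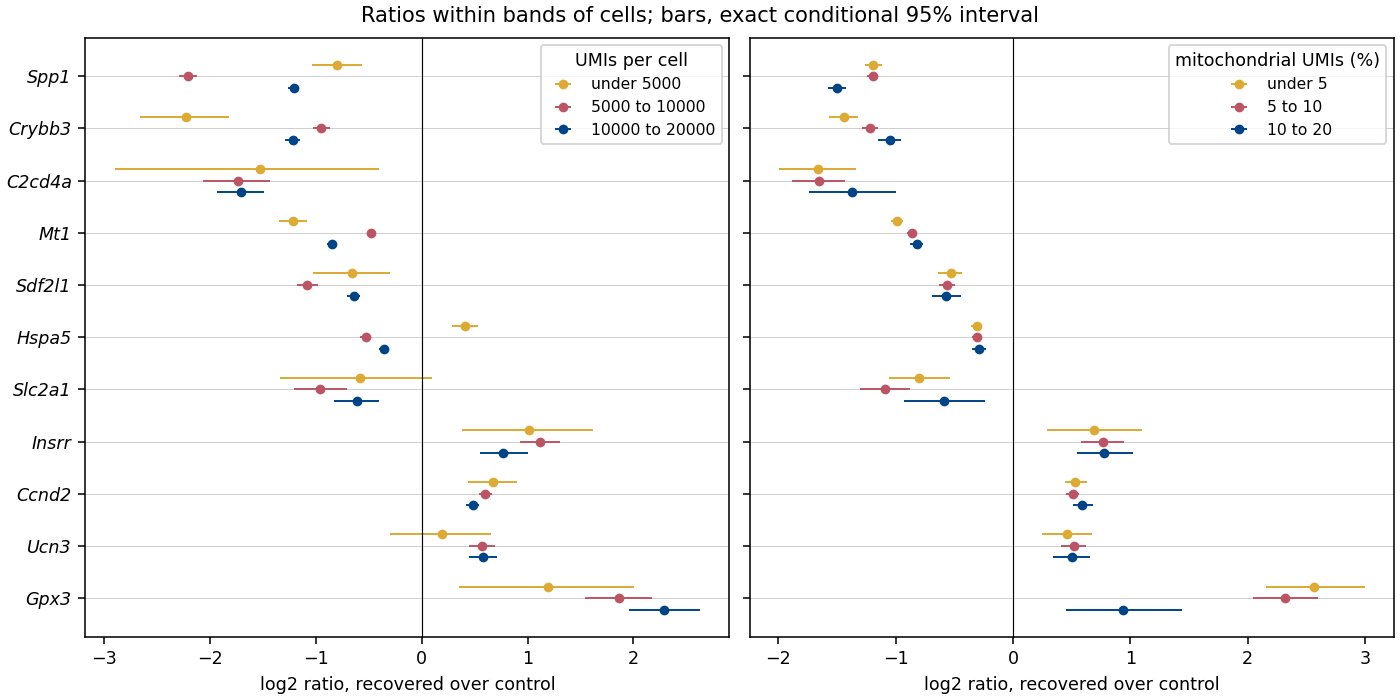
Log2 ratio of recovered over control (x axis; bars, exact conditional 95% interval) for 11 genes, within 3 bands of UMIs per cell (left) and 3 bands of mitochondrial share (right). Spp1, Crybb3, C2cd4a and Mt1 stay left of 0 and Insrr, Ccnd2 and Gpx3 right of 0 in every band, while Hspa5 lies at 0.41 in the shallowest cells and at −0.53 and −0.36 in the deeper bands.

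Some genes with large ratios lay far below their level in other cells. Timp1, an inhibitor of matrix proteases, was at 19.4 (control), 1.57 (S961) and 1.79 CPM (recovered) (−3.44), and the lowest ratio of all genes was that of the cytokine Il11, at 5.92, 10.3 and 0.402 CPM (−3.88, named after its value was seen). The intermediate filament Vim was at 4.18, 11.6 and 1.47 CPM (−1.50), Igfbp3, a carrier of insulin-like growth factors, at 8.27, 16.4 and 2.73 CPM (−1.60), and the lipid carrier Apoe at 5.74, 21.3 and 2.01 CPM (−1.51). Each lay at under 1% of its level in another class: stellate barcodes for Timp1, Il11 and Vim, endothelial for Igfbp3 and macrophage for Apoe. In the same beta cells stellate markers were at 17.0, 22.1 and 2.46 CPM (control, S961, recovered), endothelial markers at 15.8, 38.01 and 12.9, and macrophage markers at 44.4, 85.5 and 47.3. Whether the Timp1 and stellate marker levels are linked was not tested. Without cells holding 3 UMIs of other markers Timp1 was at 0.35 and Vim at 0.23, and without those holding 1 UMI, a setting chosen after the data had been seen, Igfbp3 was at 0.59 and Apoe at −0.05. On the higher side, the digestive enzyme genes Ctrb1 (27.9, 629 and 62.6 CPM), Prss2 (16.8, 233 and 31.6 CPM) and Cela1 (11.3, 186 and 26.5 CPM) were at under 1% of their acinar level. Ctrb1 and Prss2 are themselves in the acinar marker sum.

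Where alpha-cell, delta-cell and endothelial-marker-rich barcodes held enough counts, several differences had the same sign there and some the opposite sign. The difference between classes was not tested. Rgs4, lower in beta cells, was at 0.43 (0.18 to 0.68) in alpha cells and −0.55 (−0.99 to −0.11) in delta cells. Tmsb10, also lower in beta cells, was at 0.96 (0.55 to 1.37) in endothelial barcodes and within counting error of 0 in alpha and delta cells. Spp1 was at 2628 CPM in control alpha cells and 1537 in recovered ones (−0.77, −0.85 to −0.70), and at 478 and 356 CPM in delta cells (−0.42, −0.60 to −0.25). Hspa5 was at 759 and 742 CPM in alpha cells (−0.03, −0.16 to 0.10) and at 1694 and 1449 in delta cells (−0.23, −0.31 to −0.14). Ccnd2 was near 0 in both, at 309 and 323 CPM in alpha cells (0.06, −0.14 to 0.27) and 419 and 396 CPM in delta cells (−0.08, −0.26 to 0.09), and so was Gpx3, at 0.05 and 0.09. In endothelial-marker-rich barcodes Spp1 was at −1.56 (−2.08 to −1.07), Mt1 at −1.42, Hspa5 at −0.72 (−0.93 to −0.52) and Ccnd2 at 0.92 (0.42 to 1.43). In alpha, delta and endothelial barcodes Sdf2l1 was at −0.45, −0.58 and −1.77. In the same order Creld2 was at −0.10, −0.47 and −1.27, and Crybb3 at −0.42, −1.77 and −1.37. Insulin genes took 3.03% of endothelial UMIs in control and 1.36% in recovered. Insulin RNA in these barcodes thus differed between the libraries, as given here and above. Its part in the lower values was not tested.

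The S961 values are levels beside the comparison. Ratios of S961 over control share the control library with those of recovered over control, so the 2 cannot support each other. For Crybb3 they were −1.60 and −1.22, for Mt2 −1.76 and −0.94, for Slc2a1 −0.93 and −0.88, for Mafa −1.49 and 0.08, and for Aldh1a3 1.16 and −1.18.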

How the data were processed

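The deposited values are counts, the number of UMIs of each gene in each barcode, made by the submitters with Cell Ranger on mm10, per the submitters' processing notes (version not given in the sources used here). Barcodes were assigned to libraries by the suffix in the labels. All values in the deposited table belong to this series. The chosen cells and the gene lists were fixed with earlier results of these data known, so no list is tested. UMIs were summed over the beta cells of each library and scaled to CPM, with exact Poisson 95% intervals. Log2 ratios carry exact conditional binomial (Clopper-Pearson) 95% intervals, and shares exact Clopper-Pearson intervals, all of counting error only. PCR duplicates are collapsed by UMI, but cells of 1 library are not replicates. Cells were thinned once to 2000 UMIs, which left out 99 control, 89 S961 and 55 recovered cells. The computation was tested on simulated counts.

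Genes were measured at 100 UMIs over both libraries, and called at 1.5-fold. Named genes were the 15 highest and 15 lowest above 20 CPM by the interval bound nearest to 0, without mitochondrial, ribosomal or unnamed genes, markers of other cells, and genes under 10% of their CPM in another class (passed over: Gpx3, Cela1, Msln, Cryba2, Nupr1, Ldha, Id3, Hilpda, Fabp5 and Fam159b), then up to 2 each way of every list past 1.5-fold, and 35 key genes. Some named genes are not reported here. Other list members are examples chosen after their values were seen. Other classes were barcodes with under 15% insulin UMIs and 1% of a hormone gene or 10 marker UMIs. Scrublet (expected rate 0.06) called 3 of 4270 cells (0.0703%) in control, 77 of 3507 in S961 and 24 of 3537 in recovered, so it did not work in control, and doublets were left in. Coordinates are from GENCODE M21, where 84 of 85 named genes had 1 entry. Python 3.11.15, numpy 2.4.6, scipy 1.17.1, pandas 2.3.3, scanpy 1.11.5 and matplotlib 3.10.9 were used. Alternatives covered scaling, depth, filters on cells and genes, and the fold.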

Additional observations from a re-analysis of the deposited data

How the results depend on the processing

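The counts of genes higher in recovered than control beta cells (192) and of genes lower in recovered than control beta cells (90) stayed within 1.5 times under every other scaling and filter on cells that was tried, at 145 to 267 higher and 67 to 109 lower. They moved with the minimum count and the fold: 363 and 147 at a minimum of 50 UMIs, 100 and 46 at 200, 2668 and 1979 with no minimum, 1014 and 372 at a 25% difference, and 33 and 20 at 2-fold. With the median ratio of all genes set to 0 they were 165 and 109. Of 45 named genes past 1.5-fold, 22 stayed past it under all 15 alternatives of the ratio, among them Spp1, Crybb3, C2cd4a, Mt1, Mt2, Slc2a1, Aldh1a3, Insrr, Satb1 and Gpx3, and 4 changed sign under at least 1. Slc7a3 was at −0.20 with cells thinned to 2000 UMIs. Timp1 was at 0.13 with insulin at 25% or more of UMIs. Without cells holding 3 UMIs of other markers Timp1 was at 0.35 and Vim at 0.23, and without those holding 1 UMI, chosen after the data were seen, Timp1 was at 0.64, Vim at 0.35 and Igfbp3 at 0.59. Both settings remove cells by the markers concerned. No paired analysis was possible because each group is 1 library. Leaving out a replicate was not possible for the same reason. Genes at a few CPM, such as Cdkn2a, Gast and Mki67, are limited by depth.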
